A study of Mus musculus with 10 samples.

Results

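The myogenic and Mef2 transcription factors were followed as 10 genes, among the 37947 gene symbols in the RNA sequencing of mouse gastrocnemius muscle. They were the myogenic regulatory factors Myod1, Myog, Myf5 and Myf6, the satellite cell factor Pax7, the Mef2 genes Mef2a, Mef2c and Mef2d, and the regulators Hdac4 and Runx1. These genes have 28 of the 92251 transcript rows, and each gene was taken at its row with the highest mean over all 10 libraries, a choice that used no age. Of the 10 genes, 7 had a mean FPKM of at least 1 and were tested, and the other 3, Myf5, Pax7 and Runx1, were listed at 0 in every library. FPKM is a fragment number scaled to transcript length and library size, and a value of 0 on the deposited log2 scale stands for an FPKM under 1.

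The study compared young (6 months) with aged (24 months) C57BL/6 mice, which the methods give as male, with 5 libraries in each group. No allele, transgene or treatment is named for either group, so age is the labeled difference between them. Depth, rebuilt from the spacing of the values, was 19886356 to 34554377 reads in young and 20213085 to 31783530 reads in aged libraries. The tissue label was met: 10 of 10 muscle fiber markers were above 0, with a summed FPKM of 107613 to 127222 in young and 92611 to 127215 in aged libraries. The libraries numbered 3 in both groups stood apart, with 35024 and 29878 transcripts above 0 against 38855 to 43296 in the others. Several members moved with these libraries, and their differences are given with and without them. In whole muscle, fewer cells of a type and less RNA per cell cannot be told apart.

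The myogenic regulatory factors are basic helix-loop-helix proteins that bind the E-box CANNTG together with E proteins and switch on muscle genes. Mef2 proteins bind an AT-rich site in many of the same genes, and class IIa deacetylases such as Hdac4 bind Mef2 and keep it silent until kinases drive them out of the nucleus. In adult muscle, Pax7 and Myf5 belong to the satellite cells, Myf6 (MRF4) to the fibers, and Myog, Hdac4 and Runx1 are known for their induction after a fiber loses its nerve.

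Promoter sequence shows where the letters read by these factors lie in the members' own genes. The RefSeq windows (GRCm38.p6) reach from 250 bases before to 50 bases after a gene's start. Myod1 and Myf6 had no window. Letters were searched on both strands: the E-box CANNTG was in 72.3% of 32851 windows, its form CAGCTG, also counted as CANNTG, in 16.3%, and the Mef2 consensus in 3.19%. The Mef2 consensus was searched as YTAWWWWTAR, where Y is C or T, W is A or T and R is A or G. Stretches from 150 bases before to 20 bases after the start are printed for Myog, whose window had 2 E-boxes, for Mef2a, the only member with a Mef2 consensus in its window, and for Chrna1, a textbook target of the myogenic factors that is described below. Capitals mark these matches.
Myog, chr1:134289854-134290023, plus strand: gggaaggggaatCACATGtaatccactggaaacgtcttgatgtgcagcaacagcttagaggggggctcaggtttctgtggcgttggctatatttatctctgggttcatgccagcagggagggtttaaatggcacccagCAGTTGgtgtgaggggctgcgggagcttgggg
Mef2a, chr7:67372839-67373008, minus strand: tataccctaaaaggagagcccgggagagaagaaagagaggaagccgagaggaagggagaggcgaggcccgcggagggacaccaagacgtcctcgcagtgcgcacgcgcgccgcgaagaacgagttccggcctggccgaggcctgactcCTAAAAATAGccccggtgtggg
Chrna1, chr2:73580319-73580488, minus strand: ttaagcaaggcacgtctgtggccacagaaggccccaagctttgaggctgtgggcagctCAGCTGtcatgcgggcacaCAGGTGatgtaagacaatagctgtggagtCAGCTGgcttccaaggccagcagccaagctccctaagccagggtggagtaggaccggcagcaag
The Myog matches were CACATG and CAGTTG, 138 and 12 bases before the start. In Mef2a, CTAAAAATAG began 2 bases before it. Chrna1 had CAGCTG at 92 and 44 bases and CAGGTG at 73 bases before its start. The Myog stretch also holds CTATATTTAT, which departs from the Mef2 pattern only in its last letter and was therefore not marked. A match is a description of the letters and not a measured binding site, and a window without a match was not shown to lack a site.

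The satellite cell factors were below the listing level at both ages. Myf5 (chr10:107482908-107486134), the earliest of the myogenic factors in development, was listed at 0 in all 10 libraries on its single row. Its neighbor Myf6 was among the most abundant members, so the 2 genes differed although they lie next to each other on the minus strand. Pax7 (chr4:139737062-139833528), which marks satellite cells, was at 0 on both of its rows. Runx1 (chr16:92601466-92826149), a Runt-domain factor, was at 0 on all 3 rows. With an FPKM of 1 standing for 19.9 to 34.6 reads on a transcript of 1 kb, changes below that level were not detectable. No fold can be given for these genes.

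Myod1, Myog and Myf6 all had a higher mean in aged muscle, but in the unpaired tests only Myf6 had an unadjusted p under 0.05, with the numbers as a block only Myod1 did, and none passed after adjustment. Myf6 (ENSMUSG00000035923, chr10:107492853-107494737), the myogenic factor of mature fibers, was with Mef2c the most abundant member. In young libraries 1 to 5 its log2 FPKM was 5.53, 5.98, 6.02, 5.70 and 5.48, and in aged libraries 1 to 5 it was 5.97, 6.15, 5.86, 6.34 and 6.36. The ranges overlapped, and the aged library was higher in 4 of 5 same-numbered pairs, number 3 being the exception. Young muscle had a mean of 5.74 ± 0.25 and aged muscle one of 6.14 ± 0.22 (SD, n = 5 each). Aged exceeded young by 0.39 on the log2 scale (95% interval 0.00 to 0.78), which is 1.31-fold (two-sided exact permutation test, p = 0.0476). The adjusted p from limma was 1.00, and with the numbers as a block limma's unadjusted p was 0.0715. An exact permutation of the signs of the 5 pair differences gave p = 0.125. The unpaired exact permutation p of 0.0476 went above 0.05 when any of 6 libraries was left out. These were young 1 (0.0873), 4 (0.0714) or 5 (0.0952) and aged 2, 4 or 5 (0.0794 each, exact permutation). Without both libraries numbered 3 the difference was 0.53 (exact p = 0.0571, where 4 against 4 allows no less than 0.0286).

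Myod1 (ENSMUSG00000009471, chr7:46376474-46379099), a determination factor of the muscle lineage, was the member that was higher in aged muscle in all 5 same-numbered pairs. Its log2 FPKM in young libraries 1 to 5 was 2.61, 2.68, 2.50, 2.66 and 1.45, and in aged libraries 1 to 5 it was 3.04, 3.07, 3.08, 3.35 and 1.69. Number 5 was the lowest library at both ages, and the other 4 aged libraries were all above every young one. Young muscle averaged 2.38 ± 0.52 and aged muscle 2.85 ± 0.66 (SD, n = 5 each). The difference was 0.47 (95% interval -0.31 to 1.24; exact permutation p = 0.278). The pairs differed by 0.24 to 0.69, and an exact permutation of their signs gave p = 0.0625, the smallest it allows. With the numbers as a block, limma gave an interval of 0.15 to 0.78, an unadjusted p of 0.0105 and an adjusted p of 0.562. Without young library 5 the difference was 0.23 (exact permutation p = 0.556), without aged library 5 it was 0.75 (exact permutation p = 0.00794), and 0.52 with neither library numbered 5 (exact permutation p = 0.0286, the smallest that 4 against 4 allows). The row stood for 101 to 503 reads in a library.

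Myog (ENSMUSG00000026459, chr1:134289989-134292548) encodes myogenin, which acts late in differentiation and after denervation, and it was the lowest of the tested members. In young libraries 1 to 5 the log2 FPKM was 0.44, 0, 0.75, 0.86 and 0.71, and it was 1.31, 0.18, 2.38, 0.64 and 1.05 in aged libraries 1 to 5. The groups overlapped, and aged library 3 was the highest. Aged minus young was 0.56 (95% interval -0.26 to 1.38; exact permutation p = 0.206), and 4 of 5 pairs were higher in the aged library. The difference was 0.30 without both libraries numbered 3 (exact permutation p = 0.400), 0.25 without aged library 3 alone (exact permutation p = 0.413) and 0.79 without aged library 2 (exact permutation p = 0.0476). The row rested on 38 to 244 reads where it was above 0, and the 0 of young library 2 stands for any FPKM under 1.

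**Figure D1:**
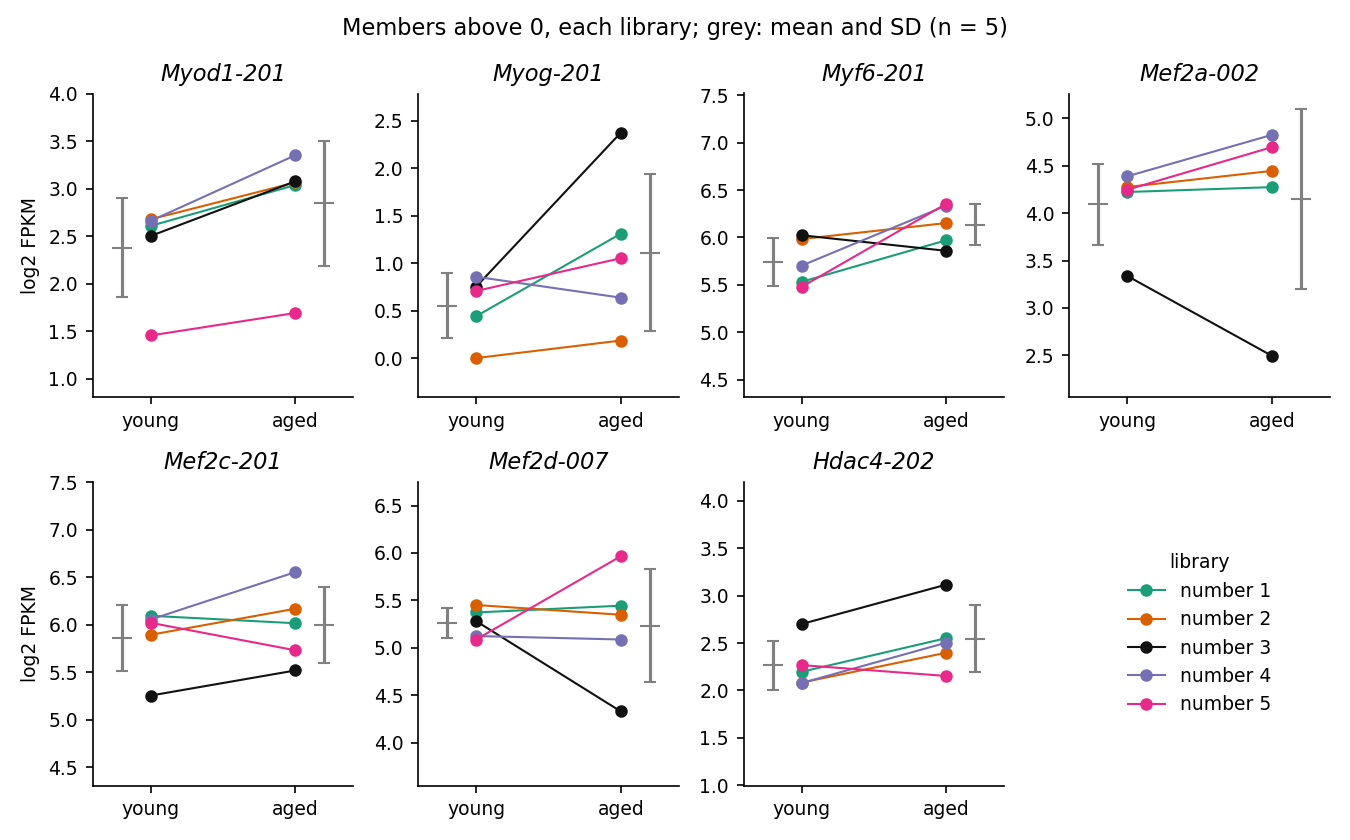
Log2 FPKM of the 7 members above the filter in young and aged libraries; each color and line is a library number, each panel spans 3.2 log2 units around its own values, and the grey marks are the mean and SD (n = 5). Number 5 is lowest for Myod1 at both ages (1.45 and 1.69), and number 3 is lowest for Mef2a (3.34 and 2.50).

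The Mef2 genes did not differ with age beyond the spread of the libraries. Mef2c (ENSMUSG00000005583, chr13:83504034-83667080), a Mef2 gene needed for sarcomere integrity, had values of 6.09, 5.89, 5.25, 6.05 and 6.02 in young and 6.02, 6.17, 5.52, 6.55 and 5.73 in aged libraries 1 to 5. Its difference was 0.13 (95% interval -0.39 to 0.66; exact permutation p = 0.595), with 3 of 5 pairs higher in aged. Library 3 was the lowest of both groups, and without both of these the difference was 0.10. The only other Mef2c row, Mef2c-202, had a difference of 0.14.

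Mef2a (ENSMUSG00000030557, chr7:67231163-67372858), a Mef2 gene of adult muscle, had values of 4.22, 4.27, 3.34, 4.39 and 4.24 in young and 4.27, 4.44, 2.50, 4.82 and 4.69 in aged libraries 1 to 5. The libraries numbered 3 were again the lowest, and the other 8 lay between 4.22 and 4.82. Over all libraries the difference was 0.05 (95% interval -0.89 to 0.99; exact permutation p = 0.905). Leaving out both libraries numbered 3 gave 0.28 (exact permutation p = 0.0857), with the aged library higher in each of the remaining 4 pairs. It was -0.14 when young library 3 alone was left out and 0.47 when aged library 3 alone was.

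Mef2d (ENSMUSG00000001419, chr3:88142372-88172086), a Mef2 gene with several muscle transcripts, was represented by Mef2d-007, which matches an annotated processed transcript of 482 bases and no protein-coding model. Its log2 FPKM was 5.37, 5.45, 5.28, 5.12 and 5.09 in young and 5.44, 5.35, 4.33, 5.09 and 5.97 in aged libraries 1 to 5. Aged library 3 was the lowest and aged library 5 the highest, and 2 of 5 pairs were higher in aged. The difference was -0.03 (95% interval -0.63 to 0.57; exact permutation p = 0.881). The row of the long protein-coding transcript, Mef2d-001 with 5401 bases, had a difference of 0.14 (exact permutation p = 0.611).

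Hdac4 (ENSMUSG00000026313, chr1:91928779-92195699), the deacetylase that represses Mef2, had values of 2.20, 2.08, 2.70, 2.08 and 2.27 in young and 2.55, 2.40, 3.12, 2.50 and 2.15 in aged libraries 1 to 5 on the row Hdac4-202. Library 3 was the highest of each group, and 4 of 5 pairs were higher in aged. Aged exceeded young by 0.28 (95% interval -0.18 to 0.74; exact permutation p = 0.183). Without both libraries numbered 3 the difference was 0.25 (exact permutation p = 0.0857), without young library 3 alone it was 0.39 (exact permutation p = 0.0476), and without aged library 3 alone it was 0.14 (exact permutation p = 0.373). With the mean FPKM of both rows in place of the higher one it was 0.28 (exact permutation p = 0.0476). The other row, Hdac4-201, went the opposite way in the libraries numbered 3, which had its lowest values, 0.03 in young and 0 in aged against 1.17 to 2.74 in the others. The length of Hdac4-202 that the values give, 2392 bases, matched no Hdac4 transcript of the annotation, so which stretch of the gene it covers was not determined.

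The order of the members by mean log2 FPKM, a scale that accounts for transcript length, was Myf6 (5.94), Mef2c (5.93), Mef2d (5.25), Mef2a (4.12), Myod1 (2.61), Hdac4 (2.40) and Myog (0.83). Myf6 and Mef2c did not differ beyond their spread, with Myf6 higher in 4 of 10 libraries (exact permutation of signs, p = 0.941). Myod1 and Hdac4 likewise crossed, Myod1 being higher in 6 of 10 libraries (exact permutation of signs, p = 0.258). The other neighbors were apart: Mef2c exceeded Mef2d in 8, Mef2d exceeded Mef2a in 10, Mef2a exceeded Myod1 in 9 and Hdac4 exceeded Myog in 10 of 10 libraries. Mef2d would stand at 4.93 by its long transcript, still between Mef2c and Mef2a.

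Counted over the members, limma called 0 of 7 at an adjusted p under 0.05, where it called 0.00788% of 38059 transcripts, namely Cpne2-001, Cpne2-002 and Sln-201. At an unadjusted p under 0.05 limma gave 1 of 7, Myf6, against 4.63% of transcripts, and with the library numbers as a block also 1 of 7, Myod1, against 8.17%. By the exact permutation test 1 of 7 was higher in aged muscle (background 7.73% of 10161 genes) and 0 of 7 were lower (1.5%). No member met the 2-fold criteria, which ask for a log2 difference over 1 and an equal-variance test below 0.05 before adjustment (1.11%). None had groups that did not overlap with aged higher (2.08%). The aged library was higher in all 5 pairs for 1 of 7 (11.4%). The mean difference was above 0 for 6 of 7 members against 61.4% of genes. The median of the 7 differences was 0.28, both with and without the libraries numbered 3, and that of all genes tested was 0.07, or 0.14 without these libraries. Counts of 0 or 1 in 7 genes are near what each of these backgrounds gives.

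**Figure D2:**
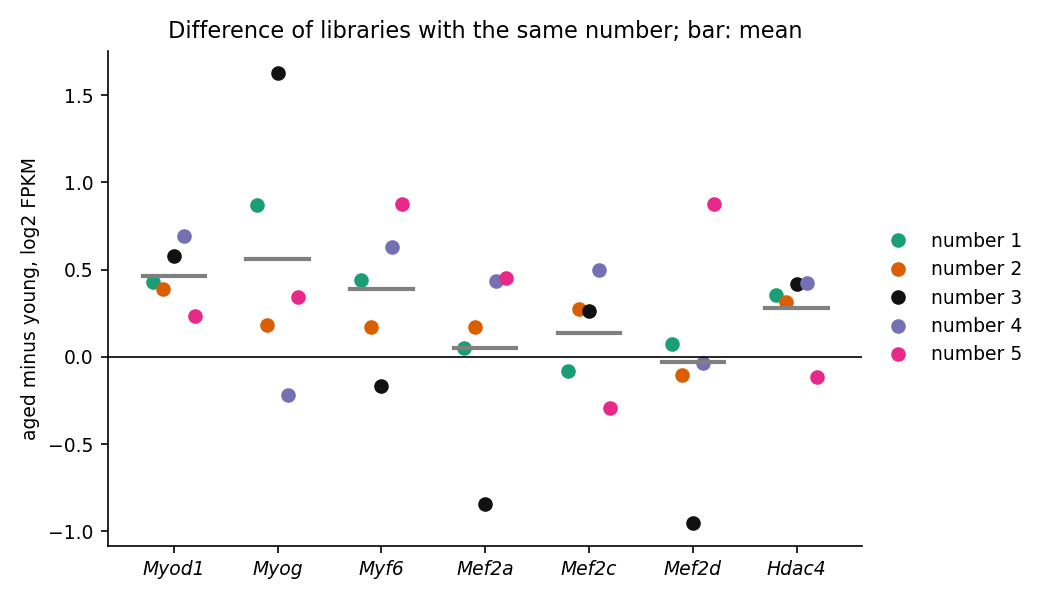
Aged minus young log2 FPKM for libraries with the same number, for the 7 members tested; each color is a library number and the bar is the mean of 5 differences. All 5 points of Myod1 lie above 0 (0.24 to 0.69), whereas number 3 lies below 0 for Myf6 (-0.16), Mef2a (-0.84) and Mef2d (-0.95).

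The rows of a single gene differed in how low the libraries numbered 3 were. Rows of a gene share sequence and are not independent. Mef2a had 7 rows whose length matched an annotated transcript, and for each the distance from its 3′ end to the most distal 3′ end of the gene was taken from GENCODE vM21. On Mef2a-002, which ends at the distal site, aged library 3 was 2.06 below the mean of the other aged libraries. On Mef2a-004 and Mef2a-007, ending 755 and 921 bases short of it, the gap was 4.08 and 4.14, and library 3 had values of 0.49 and 0.55. On the other 4 rows, ending 2876 to 20646 bases short, aged library 3 was at 0 while the other 4 aged libraries had means of 3.89 to 4.06. Young library 3 had the same order, with gaps of 0.94 on Mef2a-002, 1.42 and 1.68 on the next rows, and 3.28 to 3.80 on the last 4, and it was at 0 on Mef2a-006. Gaps of a library at 0 are lower bounds.

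Mef2d had this pattern more clearly in the aged than in the young library 3. Aged library 3 was 0.27 below the other aged libraries on Mef2d-001, which ends at the distal site, and 0.60 below on Mef2d-002, which ends 2156 bases short. The gap was 1.13 on Mef2d-007 (3180 bases short), 1.86 on Mef2d-006 (3301), 2.59 and 2.52 on Mef2d-003 and Mef2d-004 (3431 each), and 3.23 on Mef2d-005 (16083), where the library was at 0. In young library 3 the gap was at most 0.53 on the first 6 rows and 1.69 on Mef2d-005. Without the libraries numbered 3, the aged minus young differences of the 7 Mef2d rows lay between 0.14 and 0.22, against -0.19 to 0.14 with them. A part of RNA quality or library preparation in these gaps was not tested.

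**Figure D3:**
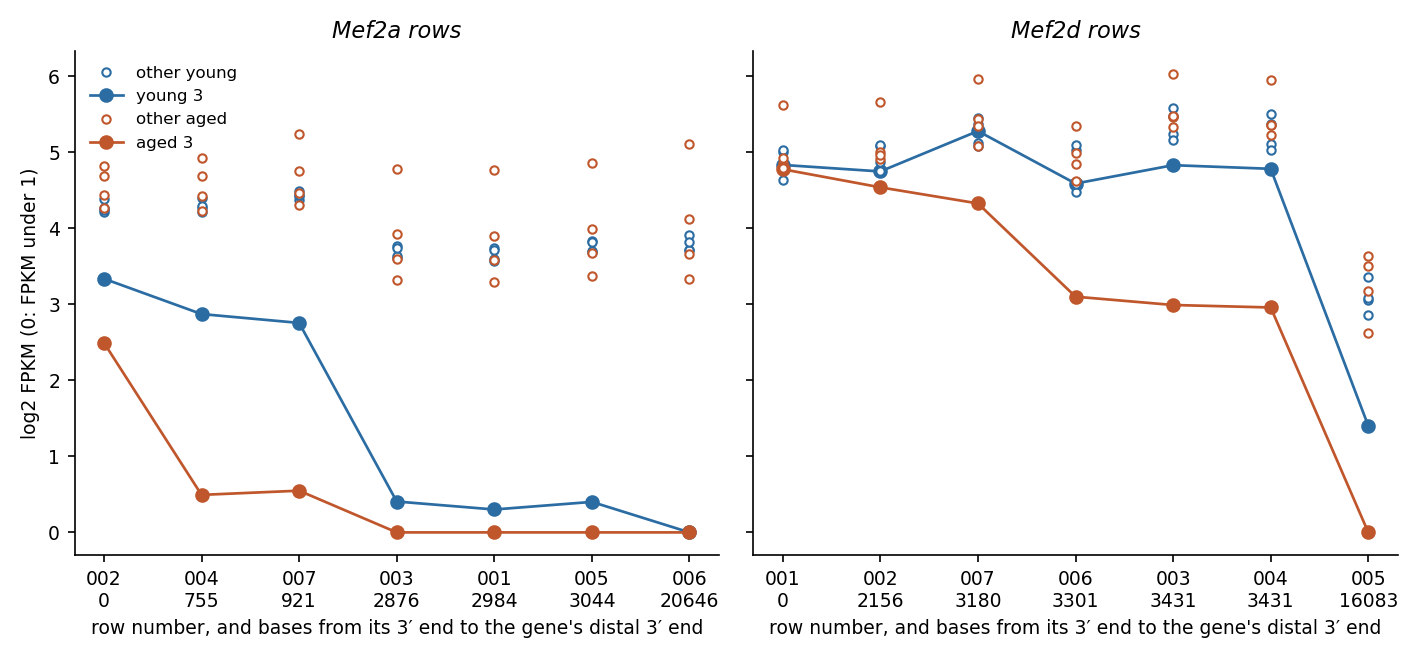
Log2 FPKM of the annotated rows of Mef2a and Mef2d, ordered by the number of bases from a row's 3′ end to the gene's distal 3′ end (second line of the axis labels); filled, joined points are the libraries numbered 3 and open points the other 8. Aged library 3 drops from 2.50 to 0 across the Mef2a rows and from 4.78 to 0 across the Mef2d rows, while the 8 libraries not numbered 3 stay above 2.6.

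Partners and targets of the members were read from lists, in which exact permutation p-values are unadjusted and no gene passed limma's adjusted threshold. Differences are aged minus young in log2 FPKM, against a median of 0.07 (0.14 without the libraries numbered 3) and backgrounds of 7.73% higher and 1.5% lower over all genes. The list of E proteins and Id inhibitors also held Hes, Hey and Bhlhe genes. Of its 12 tested genes, 3 were higher in aged muscle and 0 lower. Id1 and Id2, which hold E proteins away from the myogenic factors, differed by 0.97 (exact permutation p = 0.0159) and 0.77 (exact permutation p = 0.0317), and Tcf4, an E protein, by 0.34 (exact permutation p = 0.0238). The list's median was 0.27, and with the numbers as a block 4 were higher, Id1, Id2, Id3 and Bhlhe40, and 1 lower, Bhlhe41, while Tcf4 had an unadjusted limma p of 0.0603. Among 17 other muscle transcription factors, 0 were higher and 0 lower, with a median of -0.14, and its most abundant genes were Smyd1, a histone methyltransferase of muscle (-0.74, exact permutation p = 0.381, and -0.09 without aged library 3) and the T-box factor Tbx15 (-0.09, exact permutation p = 0.302). The Runx family and its cofactors, with 4 tested, had 0 in either direction. Its abundant members Cbfb and Tle1, partners of Runx proteins, each differed by -0.02. With the numbers as a block, where 8.17% of transcripts had an unadjusted limma p under 0.05, 1 of the 17 other factors was higher, Eya3 (0.52), and 1 lower, Six2 (-0.50), both chosen after their values were seen.

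The cofactors and kinases of Hdac4 and Mef2 had 3 of 23 higher and 0 lower, with a median of 0.11, or 0.19 without the libraries numbered 3. Of these, Prkd2 reached the filter only through the aged libraries (mean FPKM 0.43 in young and 1.61 in aged), so it had to be higher. Sik1, a kinase of class IIa deacetylases, had log2 FPKM values of 0.22, 0.66, 1.17, 0.77 and 1.25 in young and 2.12, 1.61, 2.70, 2.74 and 2.32 in aged libraries 1 to 5. All aged libraries were above all young ones, and the means differed by 1.48 (exact permutation p = 0.00794, the smallest that 5 against 5 allows, and adjusted p from limma 0.355). Ywhab, a 14-3-3 protein of the family that holds phosphorylated deacetylases in the cytoplasm, was 0.31 higher (exact permutation p = 0.00794).

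The denervation targets of Hdac4 and myogenin had 5 of 15 higher and 1 lower, with a median of 0.40. Chrna1, the acetylcholine receptor alpha subunit whose promoter is printed above, had log2 FPKM values of 0.45, 0.86, 0.39, 0.84 and 1.11 in young and 1.66, 1.90, 2.42, 2.43 and 1.90 in aged libraries 1 to 5. The groups did not overlap, and their means differed by 1.33 (exact permutation p = 0.00794, adjusted p from limma 0.222). Chrnb1, the beta subunit, was 0.87 higher (exact permutation p = 0.00794, adjusted p from limma 0.180). Cdkn1a, a cell cycle inhibitor, was 1.88 higher (exact permutation p = 0.00794). Dok7, which activates the receptor kinase of the neuromuscular synapse, was 0.95 lower (exact permutation p = 0.0397), and 0.45 lower without both libraries numbered 3. Gadd45a and Fgfbp1 were the other higher genes. Chrne, Musk, Trim63, Fbxo32, Fbxo30, Myh3, Myh8, Mylk4 and Rapsn did not pass in either direction. Among these, Trim63 differed by -0.11 (exact permutation p = 0.968), Fbxo32 by 0.38 (exact permutation p = 0.643) and Musk by 0.19 (exact permutation p = 0.770). With the numbers as a block 5 of the 15 were higher and 0 lower. The subunits Chrnd and Chrng and the corepressor gene Dach2 were listed at 0 in all libraries.

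Contractile and metabolic targets of the myogenic factors and Mef2 went both ways, with 4 of 38 higher, 3 lower and a median of -0.03, which was 0.04 without the libraries numbered 3. The 4 higher genes were Hspb7, a small heat shock protein (1.37, exact permutation p = 0.0238), Klf2 (1.27, exact permutation p = 0.0476, and 0.81 without aged library 3) and Klf4 (1.19, exact permutation p = 0.0159), both Krüppel-like factors, and Xirp1, an actin-binding protein (0.76, exact permutation p = 0.0159). Myh4, the myosin of type IIb fibers, was 0.27 lower (exact permutation p = 0.0238), and it was the 1 of 10 muscle fiber markers that passed, with 0 higher. With the numbers as a block its unadjusted limma p was 0.0697, and no muscle fiber marker was under 0.05. The others, named after their values were seen, were Eno3, a muscle enolase (-0.71, exact permutation p = 0.0397, and -0.36 without aged library 3), and Slc2a4, the glucose transporter GLUT4 (-0.35, exact permutation p = 0.0159). Of the 38, 4 were higher in aged in all 5 pairs and 7 lower in all 5, where 11.4% of all genes were higher and 3% lower. With the numbers as a block, 6 of the 38 were higher and 2 lower, Eno3 and Slc2a4.

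**Figure D4:**
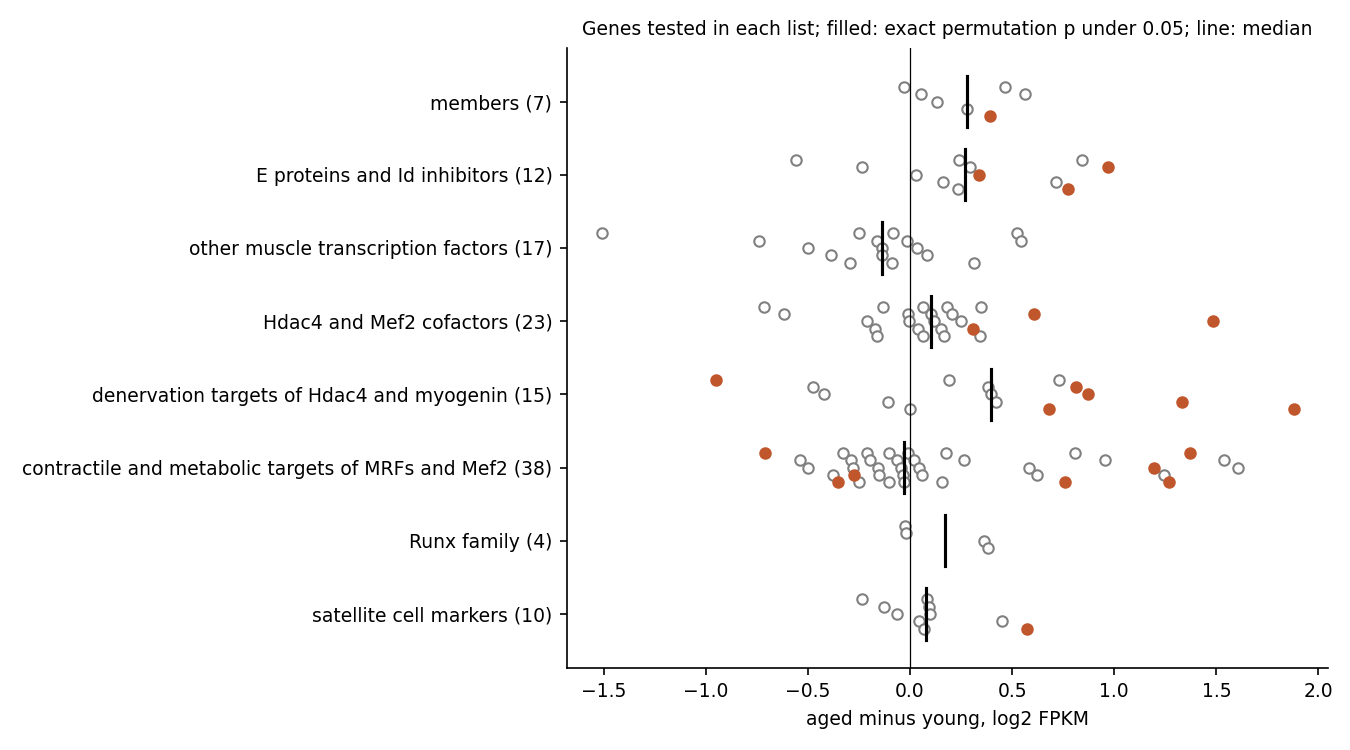
Aged minus young log2 FPKM of the tested genes of the members and 7 lists (number tested in parentheses); filled points have an unadjusted exact permutation p under 0.05 and the black line is the list's median. The members' median is 0.28, the denervation targets reach 1.88, and the Runx family has no filled point.

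Markers of satellite cells, which Pax7 and Myf5 belong to, were partly listed. Of 17 satellite cell markers, 10 were tested, 1 was higher and 0 lower, with a median of 0.08 and a summed FPKM of 94.95 to 109 in young and 102 to 116 in aged libraries. The marker was Sdc3, a surface proteoglycan (0.57, exact permutation p = 0.0159). The largest values in the sum were those of Itgb1 (mean FPKM 46.0 over all libraries), Itga7 (14.8) and Cd34 (14.4). Pax7, Myf5, Calcr, Fgfr4 and Megf10 were at 0, so the sum is not a measure of satellite cell number. Markers of other cells moved as well: 4 of 9 macrophage markers were higher and 0 lower, but Cd68, Cd163, Fcgr3 and Aif1 reached the filter only through the aged libraries. Of the other 5, 2 were higher, C1qb (1.56, exact permutation p = 0.0317) and Lyz2 (1.22, exact permutation p = 0.0159). The list had a summed FPKM of 19.9 to 52.5 in young and 37.0 to 178 in aged libraries. Of 2 T and B cell markers tested, 1 was higher, the immunoglobulin chain Igkc, which also reached the filter only through the aged libraries (mean FPKM 0.71 in young and 34.7 in aged muscle). The other, the heavy chain Ighm, differed by 0.32 (exact permutation p = 0.429), while Cd3e, Cd3d, Cd4 and Cd8a of T cells were at 0. Among 4 Schwann cell markers reported, 0 passed in either direction, the myelin gene Mbp among them (1.11, exact permutation p = 0.159). Fibroblast markers had 1 of 11 lower, Col3a1 (-1.03, exact permutation p = 0.0317). Endothelial (10 tested), adipocyte (6) and erythrocyte (4) markers had 0 in either direction. With the numbers as a block, 6 macrophage, 2 adipocyte (Cfd and Fabp4) and 1 endothelial marker (Cldn5) had an unadjusted limma p under 0.05 and were higher, and of the fibroblast markers 1 was higher (Ly6a) and 2 lower (Col1a1 and Col3a1). Only 5 macrophage markers reached the filter through both groups, so the 6 include genes whose direction the filter fixed. The part of these cell markers in the members' values was not tested.

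Across the 10 libraries, the members did not share a single profile. As a description over 10 libraries, the gene most like Myf6 among 8220 compared was Calr (Pearson r = 0.948), followed by Strn4 and Sec61a1. Mef2a was most like Skiv2l2 (0.996), Rab6a and Pstpip2, Mef2c most like Stard8 (0.978), Prrc2b and Ipo8, and Mef2d most like Faf1 (0.967), Pias4 and 1700022I11Rik. Hdac4 was most like Cryab (0.972), Mgll and 3110040N11Rik, and Myod1 most like Gm23419 (0.920), Pnck and Ehd2. Between members, r moved with the libraries numbered 3: leaving them out took Mef2a and Hdac4 from -0.793 to 0.250, Mef2a and Myf6 from 0.265 to 0.818, Mef2c and Hdac4 from -0.419 to 0.598, and Mef2c and Mef2d from 0.101 to -0.709. Mef2a and Mef2d went from 0.707 to 0.183 and Mef2a and Mef2c from 0.741 to 0.382. Without them Sec61a1 (0.966) stood above Calr (0.962) for Myf6, and Ipo8 (0.970) above Stard8 (0.948) for Mef2c. The points share library depth and the pairing of the numbers.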

How the data were processed

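Poly-A RNA of gastrocnemius muscle was sequenced in 5 young and 5 aged libraries. The authors aligned the fragments with TopHat2 to mm10, derived FPKM and deposited it as log2 values per transcript, replicates not pooled; the counting program is not given in the sources used here. The methods describe an FPKM per RefSeq gene, whereas the rows carry transcript names. An FPKM under 1 is listed as 0, and 233 rows have no name. The values were used as deposited. Each column was matched to its sample by name.

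limma 3.58.1 (R 4.3.3, lmFit and eBayes with default settings) was run on all 38059 rows whose mean FPKM reached 1, zeros counted as 0, with Benjamini-Hochberg adjustment over all of them and an adjusted p under 0.05. Intervals of differences are limma's 95% intervals. For single genes, two-sided exact permutation tests were used. Same-numbered libraries deviated from their groups together (correlations over transcripts of 0.131, 0.332, 0.695, 0.390 and 0.208, against a mean of -0.0376 for other combinations), so the numbers were taken as pairs, a link that the data and not the labels give. The block and pair results use the same values from which this pairing was read. Values were centered within each group, which lowers the mean of the other combinations when same-numbered libraries correlate. Depth was rebuilt from whole-read steps of the values and used only to describe precision. The scripts were tested on simulated data (Python 3.11.15, numpy 2.4.6, pandas 2.3.3, scipy 1.17.1, matplotlib 3.10.9). The methods give 5 muscles for each group, and the labels do not name the animal of a library, so p-values measure the spread between these libraries.

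The members, and 16 lists of partners, targets and cell markers, were chosen with earlier results of these data known; 3 list genes are not reported here and were left out of the counts. Besides the members, up to 4 genes of a list with an exact p under 0.05 were named by size of the difference, or else the 2 most abundant, and the 3 genes with the highest correlation to a member above 0 in all libraries. Gene positions are from GENCODE vM21 (GRCm38).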

Additional observations from a re-analysis of the deposited data

Results flagged for a closer look

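A library was marked where its gap to the nearest of its group exceeded Dixon's 95% critical value as a share of the group's range. Of 14 groups of member values, 5 were marked, and of 90 groups over all 45 named genes 12 were, where chance gives about 1 in 20; in 1 of the 12, Cd68, the other libraries were all listed at 0, which fixes the mark.

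Myod1 was marked in the libraries numbered 5 of both ages, at 1.45 in young against 2.50 to 2.68 in the others, and at 1.69 in aged against 3.04 to 3.35. Mef2a was marked in the libraries numbered 3 of both ages, at 3.34 in young against 4.22 to 4.39, and at 2.50 in aged against 4.27 to 4.82. Mef2c was marked in young library 3, at 5.25 against 5.89 to 6.09.

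Among the list genes, aged library 3 was marked for Smyd1 (4.13 against 7.00 to 7.57), Dok7 (0 against 2.15 to 2.86) and Egfl7 (5.36 against 4.07 to 4.43). Young library 2 was marked for the macrophage genes Cd68 (0.29 against 0 in the others) and Fcgr3 (0.61 against 0 to 0.15). Young library 4 was marked for Igkc (1.29 against 0 to 0.12) and young library 1 for Egr1 (1.34 against 0 to 0.21).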

How the results depend on the processing

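Each choice was changed alone, except that the replicate block was also run without both libraries numbered 3. The adjusted limma count over members was 0 under every alternative run, and 1 at an unadjusted p under 0.05. The count of list genes called, 0 as reported, was 34 at an unadjusted p, 0 to 1 when libraries were left out (Fos without aged library 3, Egr1 without aged library 5) and 2 with 1 row per gene (Chrnb1 and Igkc). Of these named genes, Fos, Egr1 and Igkc reached the filter only through the aged libraries, so they had to be higher. Such genes were not taken out of the 34. The members with an exact permutation p under 0.05, 1 as reported, numbered 0 to 2 when a library was left out, and 0 without both libraries numbered 3, with the replicate block, and with the block without those libraries. In these last settings the smallest p allowed is 0.0286, 0.0625 and 0.125, so the block could not give a call. No member met the 2-fold criteria under any alternative run. With the replicate block, limma changed no adjusted call among the members and list genes.

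Myod1, Myog, Myf6 and Hdac4 kept a higher aged mean under all alternatives, with ranges of 0.23 to 0.75, 0.25 to 0.79, 0.27 to 0.53 and 0.14 to 0.39, and the Mef2 genes changed sign in 17 cases. Mef2a ranged from -0.24 to 0.47; it was -0.14 without young library 3, -0.02 without aged library 2, -0.12 without aged library 4, -0.08 without aged library 5, -0.046 without both libraries numbered 5, -0.017 for the mean FPKM over its rows and -0.24 for its second row. Mef2c ranged from -0.02 to 0.25; it was -0.018 without young library 3 and -0.0051 without aged library 4, and -0.0047 for the medians. Mef2d ranged from -0.26 to 0.20, and from -0.21 to 0.20 over the libraries left out singly; it was 0.02 without young library 2, 0.20 without aged library 3, 0.01 without aged library 4, 0.20 without both libraries numbered 3, also with the block, 0.14 for its longest row and 0.067 for the medians. Leaving out the libraries numbered 3 and 5, the block without number 3, and the longest row were partly chosen after the data were seen; the cause of the changes was not tested.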

Other observations

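Immediate early genes, which cells switch on rapidly after a stimulus, had 7 of 15 tested genes higher in aged muscle with an unadjusted exact permutation p under 0.05 and 0 lower, where 7.73% of all genes were higher and 1.5% lower. Egr1 (mean FPKM 0.74 in young and 25.5 in aged) and Fos (0.80 and 6.11) reached the filter only through the aged libraries. Of the other 13 genes, 5 were higher. Among them, Junb differed by 2.35 on the log2 scale (exact permutation p = 0.00794) and Btg2 by 1.72 (exact permutation p = 0.00794). None passed limma's adjusted threshold over all transcripts.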
